A study of Mus musculus with 6 samples.

Results

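Foxp3 and 3 zinc finger factors of the Ikaros family, Ikaros (Ikzf1), Helios (Ikzf2) and Eos (Ikzf4), were followed in cells separated to obtain mouse regulatory T cells (Treg) with and without a conditional deletion of Dnmt1. The members were chosen by gene symbol in the platform's annotation, which gave 4 of 12393 named genes and 5 of 22690 probe sets: 1 each for Foxp3, Ikzf1 and Ikzf2, and 2 for Ikzf4. Total RNA of CD4+CD25+ cells, sorted with magnets, was hybridised to 6 arrays. CD25 is the interleukin-2 receptor's alpha chain. The wild type group (3 arrays) came from C57BL6 mice. The knockout group (3 arrays) came from mice labelled fl-DNMT1/Foxp3cre on the same strain. These carry a floxed gene for the maintenance DNA methyltransferase Dnmt1 and Cre recombinase under Foxp3, which directs the deletion to cells that express Foxp3. Whether the deletion stayed confined to such cells was not measured. Both groups thus differ in the Cre and the floxed allele as well as in the deletion, and these cannot be told apart. No agent was named for either group, and the labels give neither age nor sex of the mice. The genes lie on GRCm38.p6 at chrX:7579676-7595243 (Foxp3), chr11:11684962-11772930 (Ikzf1), chr1:69531207-69687351 (Ikzf2) and chr10:128630839-128669671 (Ikzf4). Whether every sample stems from another animal is not said in the labels, so the p-values reflect the spread among samples, which may be technical. In RNA of mixed cells, fewer Treg and less of a transcript per Treg cannot be told apart.

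Foxp3 is the forkhead transcription factor that defines the Treg lineage and is needed to keep it. Its locus, on the X chromosome, holds an intronic enhancer, the Treg-specific demethylated region, whose loss of CpG methylation goes with stable Foxp3 expression, and methylation by Dnmt1 at that locus helps to keep the gene silent in conventional T cells. Ikaros family proteins bind DNA through zinc fingers near one end and pair with each other through zinc fingers at the other. Ikaros acts throughout lymphocyte development, Helios is enriched in Treg of thymic origin and helps to keep them stable, and Eos binds Foxp3 and recruits the corepressor CtBP1 to genes that Foxp3 silences.

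The values are log2 expression summaries made with RMA, which normalises the arrays against each other and compresses low levels. Array medians lay between 5.70 and 5.77 over the 22626 probe sets that are no controls. The separated cells carried the transcripts of CD4+ T cells, with Cd4 at 9.33 ± 0.02 (SD, n = 3) on the wild type arrays and 9.11 ± 0.23 on those of the knockout, and the CD3 chain gene Cd3e at 11.44 ± 0.05 and 11.25 ± 0.15. The 2 Dnmt1 probe sets had differences of -0.53 (limma adjusted p = 0.162) and -0.72 (adjusted p = 0.113) on the log2 scale, neither past the threshold. Their position with respect to the floxed exons is not stated, so they do not check the deletion.

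Since Dnmt1 copies methylation at CpG dinucleotides, the CpG content upstream of the members' start sites is shown for the genes matched in the RefSeq promoter table (GRCm38.p6), which were Foxp3 and Ikzf1. The sequences are the 250 bases before the first listed start site of each gene, on the plus strand, at chrX:7579426-7579675 for Foxp3 and chr11:11685675-11685924 for Ikzf1, with each CpG in capitals.
Foxp3: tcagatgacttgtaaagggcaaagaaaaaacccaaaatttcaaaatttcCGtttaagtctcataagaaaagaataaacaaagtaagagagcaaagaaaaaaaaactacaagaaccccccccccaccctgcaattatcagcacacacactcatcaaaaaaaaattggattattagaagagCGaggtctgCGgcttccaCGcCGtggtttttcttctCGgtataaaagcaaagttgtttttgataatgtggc
Ikzf1: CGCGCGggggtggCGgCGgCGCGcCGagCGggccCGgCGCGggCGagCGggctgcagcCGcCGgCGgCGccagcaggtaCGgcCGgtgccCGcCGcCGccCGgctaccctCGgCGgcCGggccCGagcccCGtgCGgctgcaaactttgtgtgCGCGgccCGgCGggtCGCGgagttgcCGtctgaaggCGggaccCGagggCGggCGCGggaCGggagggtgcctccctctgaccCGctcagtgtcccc
The Foxp3 stretch held 6 CpG dinucleotides, the median of all 32851 promoter entries being 6, with quartiles at 2 and 16. The Ikzf1 stretch held 44, and 99.5% of the entries held fewer. A second listed start site of each gene had 7 CpG for Foxp3 and 1 for Ikzf1. The arrays did not measure methylation, so these counts describe the sequence only. Of the motifs searched on both strands from 250 bases before to 50 bases after each start site, the Ikaros core TGGGAA matched 1 time, at bases 4 to 9 after the first Foxp3 start site, on the minus strand. That core was in 25.6% of all entries. The forkhead core TGTTTAC, in 3.65% of entries, and the Runx core TGTGGT, in 16.8%, had no match in the windows of Foxp3 and Ikzf1.

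Of the 5 member probe sets, 1 passed the test, that of Helios, which fell in the knockout, and all 5 had negative differences. Across the 22626 probe sets, 0.486% were called lower and 1.19% higher at an adjusted p under 0.05. The knockout values of 4 of the 5 lay wholly below the wild type values, as did those of 13.6% of all probe sets. Taking each gene by its brightest probe set, 14.0% of all genes did so. Among genes with a mean at or above that of the median gene, the share was 21.2%. The median difference of the 5 was -0.51, beside -0.019 over all probe sets. In each case below, differences are knockout minus wild type on the log2 scale, and p-values are from limma, adjusted over all probe sets by the Benjamini-Hochberg method.

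**Figure D1:**
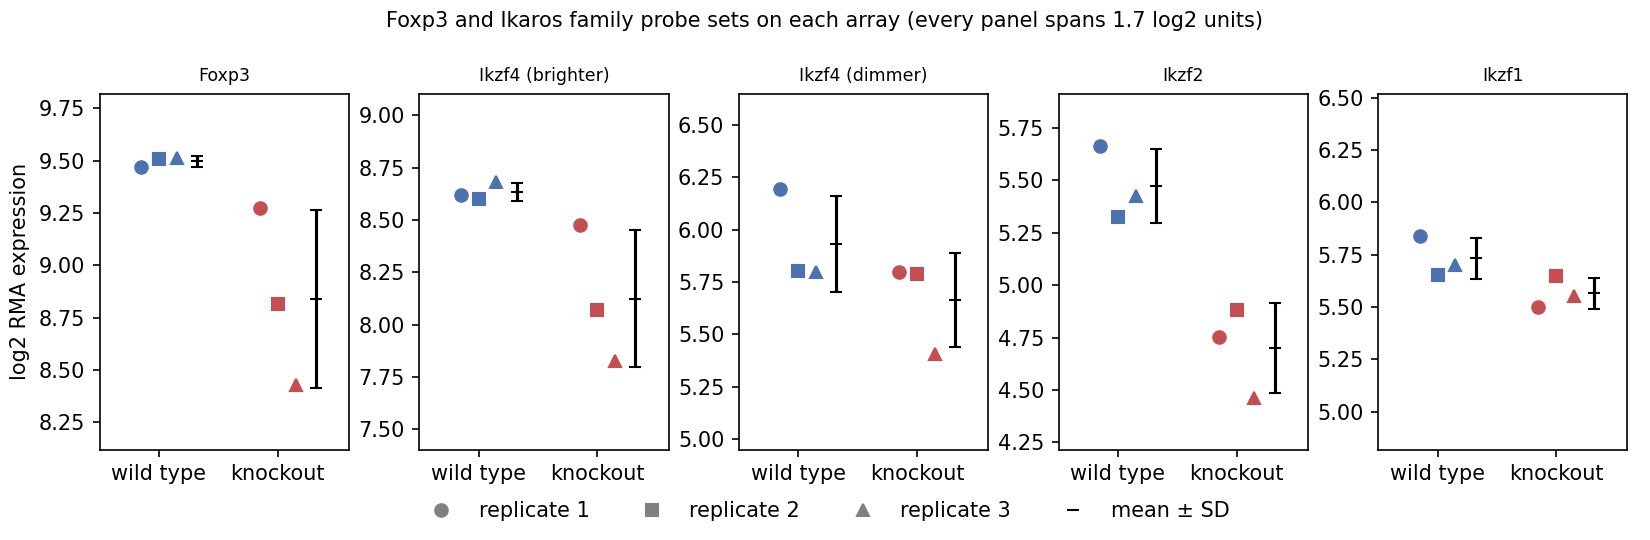
Log2 RMA expression (vertical axis, every panel spanning 1.7 units) of the 5 member probe sets on the 3 wild type and 3 knockout arrays, with symbols for the replicates and the mean ± SD of each group. Foxp3 and the brighter Ikzf4 probe set were tight in wild type and spread widely in the knockout, while both groups of Ikzf2 had similar spreads and lay apart.

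Foxp3 had values of 9.47, 9.51 and 9.51 on the wild type arrays and of 9.28, 8.82 and 8.43 on knockout replicates 1, 2 and 3. The groups did not overlap, but knockout replicate 1 lay close to wild type and replicate 3 lay lowest. The means were 9.50 ± 0.02 and 8.84 ± 0.42 (SD, n = 3), a difference of -0.66 (SE 0.19, 95% interval -1.10 to -0.21) that did not pass (adjusted p = 0.151). The SD of Foxp3 was 17.0 times as large in the knockout as in wild type, where the median gene had SDs of 0.12 and 0.094. Of 12393 genes, each by its brightest probe set, 95.4% had a smaller SD in the knockout and 6.48% a smaller SD in wild type. Without knockout replicate 1 the difference was -0.87 and passed (adjusted p = 0.0204), and without replicate 3 it was -0.45 (adjusted p = 0.231).

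Eos had 2 probe sets. The brighter had 8.62, 8.60 and 8.68 in wild type and 8.48, 8.07 and 7.83 on knockout replicates 1, 2 and 3. As with Foxp3, the groups did not overlap, replicate 1 was nearest to wild type and replicate 3 farthest from it. The difference was -0.51 (SE 0.15, 95% interval -0.87 to -0.15, means 8.63 ± 0.04 and 8.12 ± 0.33), which did not pass (adjusted p = 0.164). Without knockout replicate 1 it was -0.68 and passed (adjusted p = 0.0227). The dimmer had 6.19, 5.80 and 5.80 in wild type and 5.80, 5.79 and 5.41 in the knockout. Its groups touched, since wild type replicate 3 and knockout replicate 1 had the same value, and only wild type replicate 1 and knockout replicate 3 stood away from the other arrays. Its difference was -0.27 (SE 0.15, adjusted p = 0.429).

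Helios had values of 5.67, 5.33 and 5.42 in wild type and of 4.75, 4.88 and 4.46 on knockout replicates 1, 2 and 3. Every knockout array lay below every wild type array, and replicate 2 was nearest to wild type, not replicate 1 as for Foxp3. Knockout replicates 1 and 2 differed by less than the wild type SD of 0.18, so their order is uncertain. The means were 5.47 ± 0.18 and 4.70 ± 0.21, a difference of -0.77 (SE 0.13, 95% interval -1.09 to -0.46) or 1.71-fold lower, which passed (adjusted p = 0.0400). The single Ikzf2 probe set is a dim one, with 43.3% of probe sets having a lower mean, and RMA compresses differences at such levels. The call held without knockout replicate 2 and was lost without any other array. With 1 array left out, the adjusted p was 0.145, 0.101 and 0.151 without wild type replicates 1, 2 and 3, 0.050 without knockout replicate 1, just above the threshold, 0.0414 without knockout replicate 2 and 0.0825 without knockout replicate 3, while the difference stayed between -0.86 and -0.66.

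Ikaros had 5.84, 5.65 and 5.70 in wild type and 5.50, 5.65 and 5.55 in the knockout. The groups lay next to each other, with wild type replicate 2 and knockout replicate 2 nearly level. The difference was -0.17 (SE 0.087, 95% interval -0.37 to 0.035), which did not pass (adjusted p = 0.388). Aiolos (Ikzf3) and Pegasus (Ikzf5), the other family members, had no probe set annotated to them alone and so were not analysed here.

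How the Ikaros genes follow Foxp3 was read from each array's deviation from the wild type mean of its probe set. Foxp3 deviated by -0.22, -0.68 and -1.07 on knockout replicates 1, 2 and 3. The brighter Eos probe set deviated by -0.16, -0.56 and -0.80, the same order of arrays with a smaller step at each. The dimmer Eos probe set, at -0.13, -0.14 and -0.52, also had the order of Foxp3, although replicates 1 and 2 were nearly level. Helios deviated by -0.72, -0.59 and -1.01, so that replicate 3 was again lowest but replicate 1 lay below replicate 2. That gap between replicates 1 and 2 was smaller than the wild type SD of Helios (0.18). Ikaros, at -0.23, -0.09 and -0.18, did not share the order of Foxp3. Of all 12393 genes, 16.2% ordered the knockout arrays as Foxp3 did, and 2.99% did so with all knockout values below wild type. Among the 6197 genes with a mean at or above that of the median gene, these shares were 17.3% and 4.60%. With 3 knockout arrays, no correlation is given.

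**Figure D2:**
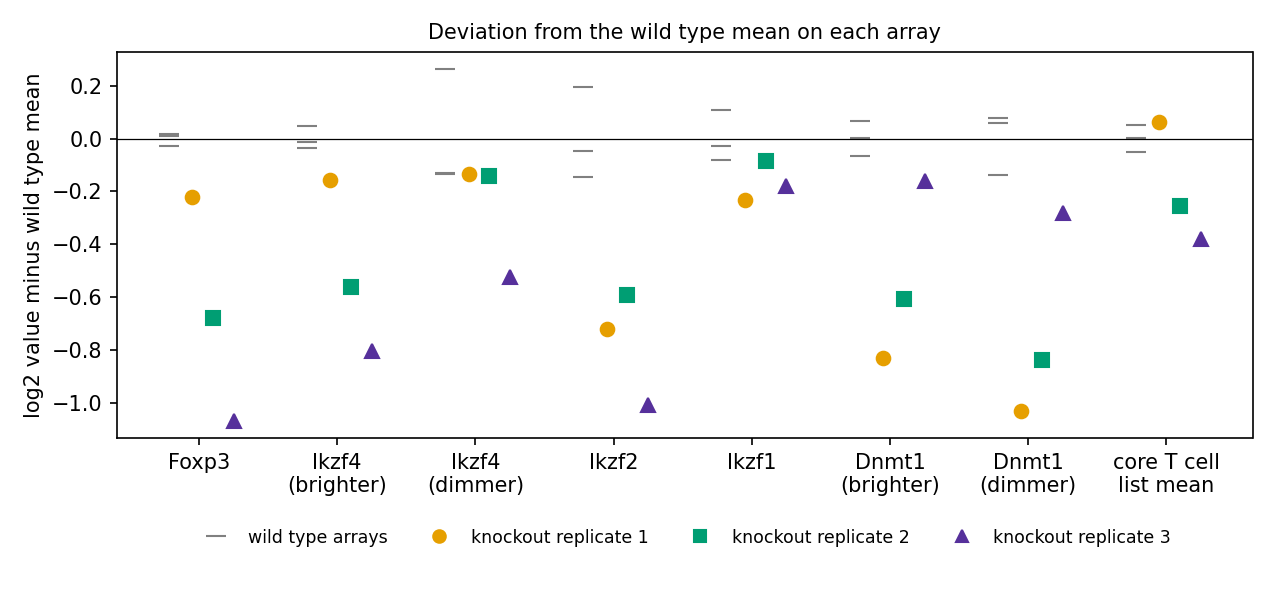
Log2 value minus the wild type mean (vertical axis) for the member probe sets, both Dnmt1 probe sets and the mean of the core T cell markers, with grey bars for the wild type arrays and coloured symbols for knockout replicates 1 to 3. Foxp3 and the brighter Eos probe set share one order of the knockout arrays, and both Dnmt1 probe sets show the opposite order.

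Dnmt1 ordered the knockout arrays the other way. Its brighter probe set deviated by -0.83, -0.61 and -0.16 on knockout replicates 1, 2 and 3, and the other by -1.03, -0.84 and -0.28. The array with the lowest Dnmt1 was thus the one on which Foxp3 and the brighter Eos probe set were nearest to wild type. Helios was low on that array, too.

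Whether a family member changed by another amount than Foxp3 was tested on the within-array difference between the log2 values of the member and Foxp3, in 4 comparisons. With 3 arrays against 3, the exact two-sided permutation test cannot give a p below 0.1. For the brighter Eos probe set this difference was -0.85, -0.91 and -0.83 in wild type and -0.80, -0.75 and -0.60 in the knockout. It was higher on all 3 knockout arrays, by 0.15 on average (exact permutation p = 0.1, 0.267 adjusted over the 4 comparisons). For Helios it moved by -0.12 (exact permutation p = 0.7), and without knockout replicate 1 by 0.075, with the opposite sign. The groups overlapped for Helios, so that a change unequal to that of Foxp3 was not detectable, which does not show that both changed alike. For Ikaros it moved by 0.49 and for the dimmer Eos probe set by 0.39 (exact permutation p = 0.2 each).

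The general T cell transcripts put the knockout arrays in the order of Foxp3. The mean over the 14 measured core T cell markers was 10.66, 10.60 and 10.71 in wild type and 10.72, 10.40 and 10.28 on knockout replicates 1, 2 and 3. All 14 had negative differences and limma called 0, with 3 lower at an unadjusted p under 0.05, as were 1161 of all 12393 genes. Of the 14, 7 ordered the knockout arrays as Foxp3 did, where 16.2% of all genes and 17.3% of those at or above the median gene did. Taken relative to that mean on each array, Foxp3 deviated from wild type by -0.28, -0.42 and -0.69 on knockout replicates 1, 2 and 3, a difference of -0.47 (SE 0.18, limma adjusted p = 0.202), and so kept its order of the arrays. The brighter Eos probe set deviated by -0.22, -0.31 and -0.42 on that scale, a difference of -0.32 (SE 0.17, adjusted p = 0.432). The dimmer one was at -0.20, 0.12 and -0.15, so that its order was no longer that of Foxp3, a difference of -0.075 (adjusted p = 0.849). Helios deviated by -0.78, -0.33 and -0.63, a difference of -0.58 that no longer passed (SE 0.18, adjusted p = 0.0845). Ikaros turned to a difference of 0.024 (adjusted p = 0.953).

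Markers of other cells were also present. All 14 measured neutrophil markers had positive differences and 9 were called higher, where 1.33% of all genes were. Their mean was between 6.03 and 6.44 on the wild type arrays and was 8.12, 10.15 and 8.80 on knockout replicates 1, 2 and 3. By that mean replicate 1 was nearest to wild type, as for Foxp3, but replicate 2 and not replicate 3 was farthest from it. With that mean as a covariate, a term chosen with earlier results of these data known and closely tied to the groups, the differences were -0.24 for Foxp3 (SE 0.47, adjusted p = 0.904), -0.092 for the brighter Eos probe set (SE 0.36, adjusted p = 0.960) and -1.01 for Helios (SE 0.34, adjusted p = 0.419). Monocyte and macrophage markers had 2 of 13 called higher, the iron exporter gene Slc40a1 and the lipopolysaccharide receptor gene Cd14. The means of this list were 5.27 to 5.77 in wild type and 6.09, 6.76 and 6.43 on knockout replicates 1, 2 and 3. Of the 13, 12 had positive differences, with 8 higher and 0 lower at an unadjusted p under 0.05 in limma. By that measure, 1061 of all 12393 genes were higher and 1161 lower. Natural killer and CD8 T cell markers had 3 of 11 called higher by limma, Crtam, Klrc1 and Ncr1. The means of the 11 were 7.79 to 7.94 in wild type and 7.98, 8.82 and 8.74 on knockout replicates 1, 2 and 3. Of those 11 markers, 8 had positive and 3 negative differences (-0.66 for Gzma, -0.61 for Cd8b1 and -0.36 for Cd8a), with 7 higher and 2 lower at an unadjusted p under 0.05. B cell markers had 0 of 9 called by limma (0 at an unadjusted p under 0.05). Their means were 6.52 to 7.80 in wild type and 6.42, 7.19 and 7.26 on knockout replicates 1, 2 and 3. Erythroid markers had 0 of 5 called by limma (2 higher at an unadjusted p under 0.05). Their means were 4.20 to 4.58 in wild type and 4.82, 4.64 and 5.43 on knockout replicates 1, 2 and 3. The array values hold no 0, so no defining marker was at 0. The part of these cells in the lower values of Foxp3, Eos and Helios was not tested beyond the values given.

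Of 3 measured Foxp genes, limma called 0. At an unadjusted p under 0.05, 2 were lower, Foxp1 and Foxp3 itself, as were 1161 of all 12393 genes. Foxp1, which counts as a factor of quiescent T cells and binds many of the sites that Foxp3 binds, had 7 probe sets, all with negative differences between -0.43 and -0.13 and none past the test (adjusted p from 0.146 to 0.601). The brightest went from 10.34, 10.41 and 10.46 to 10.17, 10.16 and 10.08, a small difference of -0.27 in which the groups did not overlap. Foxp2 had 4.18 ± 0.09 and 3.98 ± 0.10 with overlapping groups.

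Genes around Foxp3 were counted in lists, each gene by its brightest probe set, with p-values adjusted over all 12393 genes, of which 0.573% were called lower and 1.33% higher. The median difference of all genes was -0.014. Of 33 measured partners and inducers of Foxp3, limma called 0, with 12 lower and 0 higher at an unadjusted p under 0.05, where 1161 and 1061 of all genes were. Of the 33, 26 had negative and 7 positive differences, and the median was -0.14. The lowest p-values were those of the hypoxia factor gene Hif1a (10.64 ± 0.03 in wild type and 10.24 ± 0.13 in the knockout, adjusted p = 0.0737) and of Nr4a1 (10.37 ± 0.03 and 9.55 ± 0.41, adjusted p = 0.0774), which is induced by antigen receptor signals and can activate Foxp3. Nr4a1 had 9.51, 9.97 and 9.15 on knockout replicates 1, 2 and 3, which put the arrays in the order of Helios and not in that of Foxp3. The genes for the Runx1 and Cbfb complex, which binds the Foxp3 locus, had differences of 0.077 for Runx1 (adjusted p = 0.757) and -0.0087 for Cbfb (adjusted p = 0.970). The interleukin-2 signal transducer genes Stat5a and Stat5b had differences of -0.26 (adjusted p = 0.186) and -0.25 (adjusted p = 0.229).

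**Figure D3:**
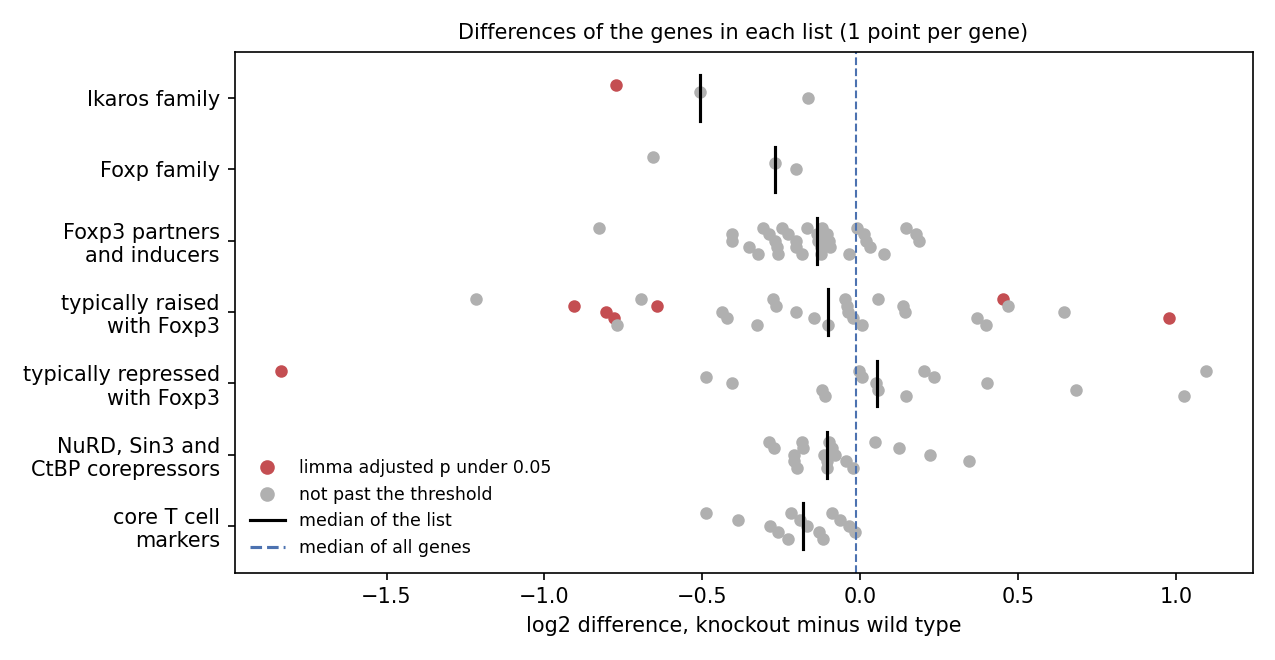
Log2 difference, knockout minus wild type (horizontal axis), of each measured gene in 6 lists around Foxp3 and in the core T cell markers, with genes past the limma threshold in red, list medians as black bars and the median of all genes as a dashed line. Called genes lie on both sides among the genes typically raised with Foxp3, and Helios is the called gene of the Ikaros family.

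Of 29 measured genes typically raised with Foxp3 in Treg, 4 fell, 2 rose and 23 did not pass, with a median difference of -0.10. Those that fell with the lowest p-values were the surface protein gene Cd83, the signalling regulator gene Rgs16 and the semaphorin receptor gene Nrp1, which marks Treg of thymic origin as Helios does. Nrp1 had 9.86, 9.73 and 9.62 in wild type and 9.19, 8.86 and 8.75 in the knockout (adjusted p = 0.0298), with groups that did not overlap and the array order of Foxp3, and its other probe sets had differences of -0.71 and -0.82 (adjusted p = 0.0643 and 0.0564 over all probe sets). Cd83 had knockout values of 8.83, 8.83 and 8.64 against 9.51, 9.64 and 9.49 in wild type (adjusted p = 0.0128), and these hardly differed among the knockout arrays. The interleukin-2 receptor gene Il2ra, whose product was used for the separation, was the other (9.03 ± 0.11 and 8.38 ± 0.20, adjusted p = 0.0432), while its second probe set had a difference of -0.24 (adjusted p = 0.308 over all probe sets). Prdm1, which encodes the effector factor Blimp1, rose from 7.36 ± 0.0034 to 7.81 ± 0.09 (adjusted p = 0.0379), and so did Fgl2, which encodes a secreted suppressive protein (6.52 ± 0.21 to 7.50 ± 0.32, adjusted p = 0.0415). In this list 9 of 29 genes ordered the knockout arrays as Foxp3 did, where 16.2% of all genes and 17.3% of the brighter genes did. Of the 29, 19 had negative and 10 positive differences. At an unadjusted p under 0.05 in limma, 11 were lower and 4 higher, where 1161 and 1061 of all 12393 genes were. The number called was 0 without each of the wild type arrays, 9 without knockout replicate 1, 2 without knockout replicate 2 and 3 without knockout replicate 3.

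Of 16 genes typically repressed with Foxp3, 1 fell, the neuronal vesicle protein gene Nsg2 (10.12 ± 0.06 to 8.29 ± 0.76, adjusted p = 0.0417), and 0 rose. Id2, an inhibitor of E proteins, had 10.24 ± 0.21 and 11.34 ± 0.45 (adjusted p = 0.0569). The interleukin-2 gene Il2, a classic gene repressed by Foxp3, was at 5.28 ± 0.33 and 5.29 ± 0.09, nearly level (adjusted p = 0.989). Its values lay below the median gene mean of 6.34, and how far they stood above background is unknown. They therefore do not show whether repression of Il2 was unchanged. At an unadjusted p under 0.05 in limma, 1 of the list was lower and 2 were higher, where 1161 and 1061 of all 12393 genes were. The list had 10 positive and 6 negative differences and a median of 0.054. The Nsg2 call was lost without each of the wild type arrays. Of 19 corepressor genes of the NuRD, Sin3 and CtBP complexes, through which Ikaros family proteins act, limma called 0. At an unadjusted p under 0.05 in limma, 1 was lower and 1 higher, beside the 1161 and 1061 of all genes. Of the 19, 15 had negative differences, and the median was -0.10. The remodeller gene Chd4, the partner of Ikaros in NuRD, had a difference of -0.21 (adjusted p = 0.231), the methyl-CpG reader gene Mbd2 0.22 (adjusted p = 0.170) and the Eos partner gene Ctbp1 -0.10 (adjusted p = 0.560).

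The genes whose pattern was most like that of Foxp3 were taken by the root mean square distance over the 6 arrays, after subtracting each gene's wild type mean, among the 6195 brighter genes (not below the median gene) that are no members. These were Mapk11, a p38 kinase gene (distance 0.11), the epoxide hydrolase gene Ephx1 (0.11), the chemokine receptor gene Cxcr5 (0.11), the tetraspanin gene Tspan32 (0.13) and Il6st, which encodes the shared receptor chain of the interleukin-6 family (0.13). Mapk11 had 7.48, 7.11 and 7.00 on knockout replicates 1, 2 and 3 against 7.81, 7.88 and 7.89 in wild type, so that every knockout array was lower and replicate 1 was nearest to wild type. By the same measure, but ranked among all 12392 other genes, Eos by its brighter probe set was at a distance of 0.12 and ranked 6. Helios was at 0.24 and ranked 104, and Ikaros was at 0.44 and ranked 2440. Among the brighter genes, Eos by that probe set ranked 4. The dimmer Eos probe set was at 0.35, farther from Foxp3 than Helios was. The genes nearest to Helios were the kinase gene Clk1 (0.11), the stress-response phosphatase subunit gene Ppp1r15a (0.11) and Rgs16 (0.13). Rgs16 had 6.63, 6.81 and 6.26 on the knockout arrays against 7.51, 7.45 and 7.46 in wild type, with replicate 1 below replicate 2 as for Helios. A second probe set of Mapk11, much dimmer, had a difference of -0.049. The distance is a description over 6 arrays and counts the shared drop between the groups as likeness.

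**Figure D4:**
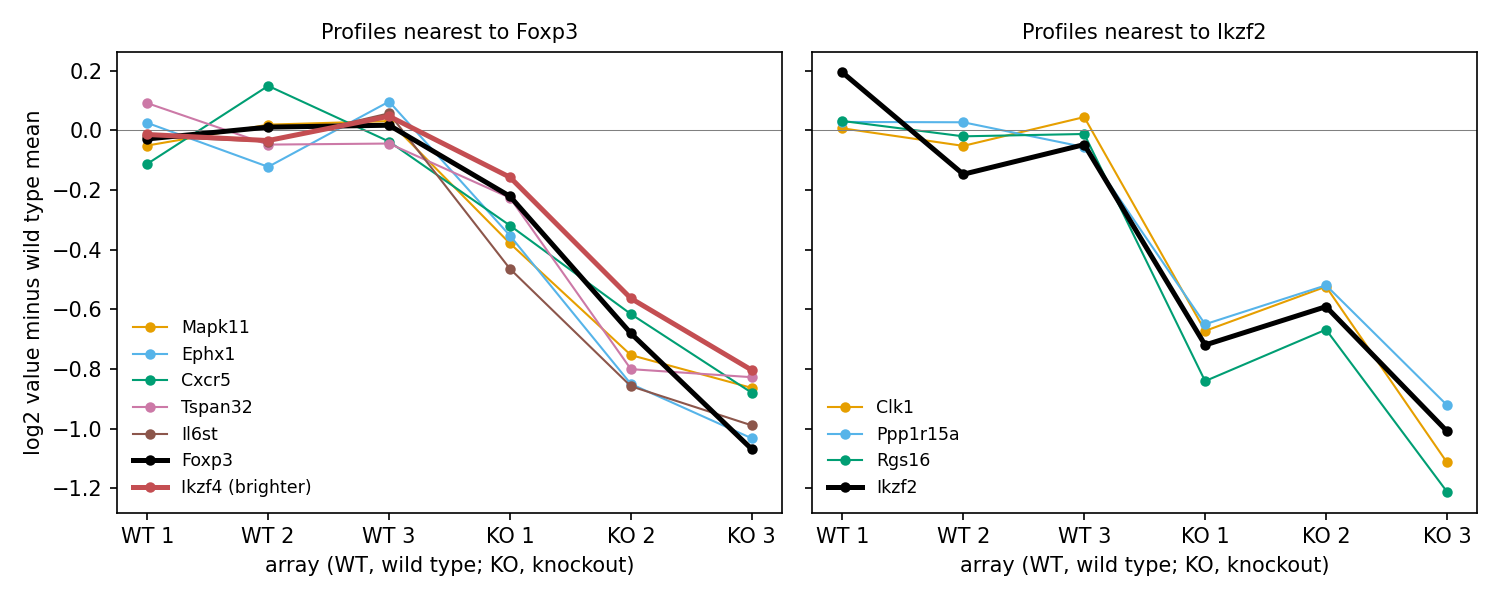
Log2 value minus the wild type mean (vertical axis) on the 6 arrays (horizontal axis) for the 5 genes nearest to Foxp3 with Foxp3 and the brighter Eos probe set on the left, and for the 3 genes nearest to Ikzf2 on the right. Foxp3 and the brighter Eos probe set run together with knockout replicate 1 nearest to wild type, while Helios and its neighbours have replicate 1 below replicate 2. For Helios that gap is smaller than its wild type SD.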

How the data were processed

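The deposited values of 3 wild type and 3 Dnmt1 knockout arrays are log2 values that the authors made with RMA, 1 per probe set and array (per the submitters' processing notes). Its version and settings were not stated. Probe sets were named through the platform annotation, where 20380 had 1 symbol, 691 several and 1555 none, and 64 controls were left out. The 2-sided tests were those of limma 3.58.1 in R 4.3.3 (lmFit, then eBayes) over all 22626 probe sets, and over 12393 genes by brightest probe set for the lists. The number of arrays limits the precision. The members and lists were chosen with earlier results of these data known. Named were all member probe sets, Dnmt1, the other Foxp genes, up to 4 called members per list (or the 2 with the lowest p), list markers and the nearest 5 and 3 genes to Foxp3 and Ikzf2. Runx1, Cbfb, Stat5a, Stat5b, Ctbp1, Il2, Il2ra, Fgl2, Gzma, Cd8a and Cd8b1 were named outside this rule, their values seen, for their roles or to complete a count. Of the genes named from lists, Hif1a and Runx1 had another, dimmer probe set of opposite sign. The fit was tested on simulated data. Figures were drawn with matplotlib 3.10.9.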

Additional observations from a re-analysis of the deposited data

How the results depend on the processing

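The differences of Foxp3 and both Eos probe sets stayed negative under all 17, 17 and 16 alternatives that gave a value, with Foxp3 between -0.87 and -0.24 and the brighter Eos probe set between -0.68 and -0.092. With 1 array left out, Foxp3 ranged from -0.87 to -0.45, the brighter Eos probe set from -0.68 to -0.36, Helios from -0.86 to -0.66 and the within-array difference of Helios and Foxp3 from -0.22 to 0.075. Helios passed under 9 of 17 alternatives, among them quantile normalisation, median centring, cyclic loess and array weights. It did not pass relative to the core T cell mean (-0.58), with the neutrophil covariate (-1.01) or with the replicate number as a block (-0.77, adjusted p = 0.0679). Ikaros turned to 0.024 relative to the core T cell mean. Same-numbered arrays deviated from their group means with correlations of -0.076, 0.11 and -0.010 across probe sets. Differently numbered arrays did so with correlations between -0.11 and 0.12. With so few arrays per group this does not settle whether the replicate numbers pair the arrays. The block moved the call of no member other than Helios.

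Probe sets called higher (270) and lower (110) became 166 and 52 with the block, 8 and 3 with the neutrophil covariate, 732 and 60 relative to the core T cell mean, and 165 and 71 for brightest probe sets of genes, where fewer features are tested. Trend and robust variance gave 182 lower and array weights 169 lower. With 1 array left out the counts ranged from 24 to 493 higher and from 5 to 263 lower. Of the lists, the Ikaros family had 0 called with the dimmest 40% of genes left out, which removes Helios (38.0% of genes were dimmer, but 43.3% of probe sets, so that over probe sets it was kept and passed, adjusted p = 0.0356), 0 with the block and 0 to 2 with 1 array left out. The partners of Foxp3 had 1 called with trend and robust variance, 2 with array weights and 0 to 1 with 1 array left out, and the Foxp family 0 to 1. Genes typically raised with Foxp3 had 3 called with the block and 0 to 9 with 1 array left out. Those typically repressed had 2 called with median centring, with the dimmest 40% left out and with array weights, 0 with trend and robust variance and 0 to 2 with 1 array left out. The causes of these changes were not tested. The single probe set of Ikaros read near the array medians (5.70 to 5.77). That of Helios read below them, with a mean of 5.09 over the 6 arrays. RMA values give no background level, so how far these 2 signals stood above background is unknown.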
